A study of Rattus norvegicus with 6 samples.

Results

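The lysosome breaks down material delivered by endocytosis and autophagy, and 3 of its gene families were examined in rat heart muscle early after infarction: the vacuolar proton pump (V-ATPase), the cathepsins and the lysosome-associated membrane proteins (LAMPs). Members were all array probes whose RefSeq accession belongs to a gene with a symbol beginning with Atp6v or Lamp and a digit, or to a cathepsin (Cts followed by 1 letter, or by a letter and a digit). This gave 37 genes with 1 probe each, of 13876 named genes and 24614 probes in the series. They comprised 8 genes of the membrane sector of the pump, 11 of its catalytic sector, 15 cathepsins and 3 LAMPs. In the gene table used for naming, 51 genes met the rule, 46 of them protein-coding; Lamp1, Ctsz, Ctso, Atp6v1e1 and Atp6v1f are among those not analysed here.

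The tissue examined was the border zone of a myocardial infarct in male Wistar rats, taken 6 h after the left anterior descending coronary artery (LAD) was ligated (arrays M17, M24 and M25). It was set against the control zone of myocardium in male Wistar rats taken 6 h after a sham operation (arrays C4, C5 and C6). The border zone was located with TTC, a stain of living tissue, and EB; the age of the animals is not given in the sources used here. Each array holds Cy3-labelled RNA from whole tissue, so fewer cells of a type and less RNA per cell cannot be told apart.

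As background, the V-ATPase consists of a cytosolic V1 sector, which hydrolyses ATP, and a V0 sector in the membrane, through which protons enter the lysosome. The acid it makes activates most cathepsins, which are the main proteases of the lysosome, while LAMPs are heavily glycosylated proteins that line its membrane. In heart muscle this system takes up autophagosomes, and loss of LAMP2 in humans causes Danon disease, a cardiomyopathy in which autophagic vacuoles accumulate. Genes of all 3 families are among the targets of the transcription factor TFEB, which binds an E-box (CACGTG) in many lysosomal promoters.

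Several properties of the arrays bear on all values below. C4 was scanned together with the 3 border-zone arrays, C5 and C6 separately, so a fit with scan as a block equals the border zone against C4 alone and holds no sham spread. Well above background were 73.7% to 78.3% of probes on these 4 arrays, against 51.0% on C5 and 52.4% on C6. M25 lay between M17 and M24 at 558 of 572 tested probes (97.6%) that differed over 2-fold between those arrays, so it is uncertain that M25 comes from an animal of its own. For members that passed, values are given with and without M25. C5 and C6 also carried transcripts of central nervous tissue: all 14 measured markers of central neurons and glia were higher on both than on every other array. Of these 14, 10 were well above background on C5 and 11 on C6, and Rbfox3, Syt1 and Slc17a7 on neither. Probes not well above background could also read higher there, as Atp6v1g3 did (-6.25 and -5.86, against -9.10 to -8.69 on the other arrays, normalized log2). The summed signal of the 14 markers, in multiples of the 75th percentile of the array, was 1.26 to 1.62 in the border zone and 2.05 on C4. It was 12.7 on C5 and 16.3 on C6. On the border-zone arrays and C4, Nefl, Syt1, Slc17a7, Aqp4 and Mog were not well above background. The cardiac tissue itself was evident from 10 of 10 cardiomyocyte markers well above background on all 6 arrays, none of which passed the limma test (0 at an unadjusted p under 0.05). No spot was saturated.

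Most genes of the pump, the cathepsins and the LAMPs did not pass the test in the border zone at 6 h, and the calls of the 3 that did ended without M25. Lamp2 rose 1.64-fold. The V0 subunit genes Atp6v0e2 and Atp6v0a2 fell to 0.497 and 0.720 of their sham level. For Atp6v0e2 the log2 fold change was -1.01, but -0.50 against C4 alone. None of 9 tested V1 genes and none of 12 tested cathepsin genes passed in limma (2 of the 9 and 2 of the 12 at an unadjusted p under 0.05). Over all probes tested, 36.4% had an unadjusted limma p under 0.05. The signal used is the log2 processed signal minus the 75th percentile of the array, and a gene passed when its limma p, adjusted by Benjamini and Hochberg over 17930 probes, was below 0.05. The ± of a log2 fold change is its standard error in limma (n = 3 and 3 arrays). Of the 37 members, 24 were well above background on all 6 arrays, 6 on the border-zone arrays and C4 but on neither C5 nor C6, and 7 did not qualify for the test.

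Of the 30 members tested, 3 passed (10.0%), 1 higher and 2 lower, against 19.3% of all probes tested (9.01% higher and 10.3% lower). All 3 came from the 24 members well above background on every array, where 24.9% of all such probes passed. The median log2 fold change of the 30 was -0.019, against -0.026 over all probes tested, and the median absolute value was 0.25 against 0.37. The 2 groups did not overlap for 10 of the 30 (33.3%), against 43.7% of all probes. With median scaling in place of the 75th percentile, these medians were 0.17 and 0.16, and 67.6% of all calls were higher, against 46.7%. A p above the threshold does not show that a gene did not change, so intervals are given. The 95% interval of the log2 fold change lay within 2-fold in either direction for 22 of the 30 members (73.3%), against 56.6% of all probes, and within 1.5-fold for 14 (46.7%), against 23.4%. Members beyond 2-fold in the fitted value were Atp6v0e2 and Atp6v1g2. The count of calls depends on single arrays: none of the 30 passed in limma without M24, without M25 or without C5 (3, 3 and 4 at an unadjusted p under 0.05), and 8 passed without C4. Without M25, 2.84% of all probes passed (1.6% higher and 1.24% lower). The share of all probes was 6.51% without M24, 7.84% without C5 and 40.8% without C4, to be read beside the 8 members.

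**Figure D1:**
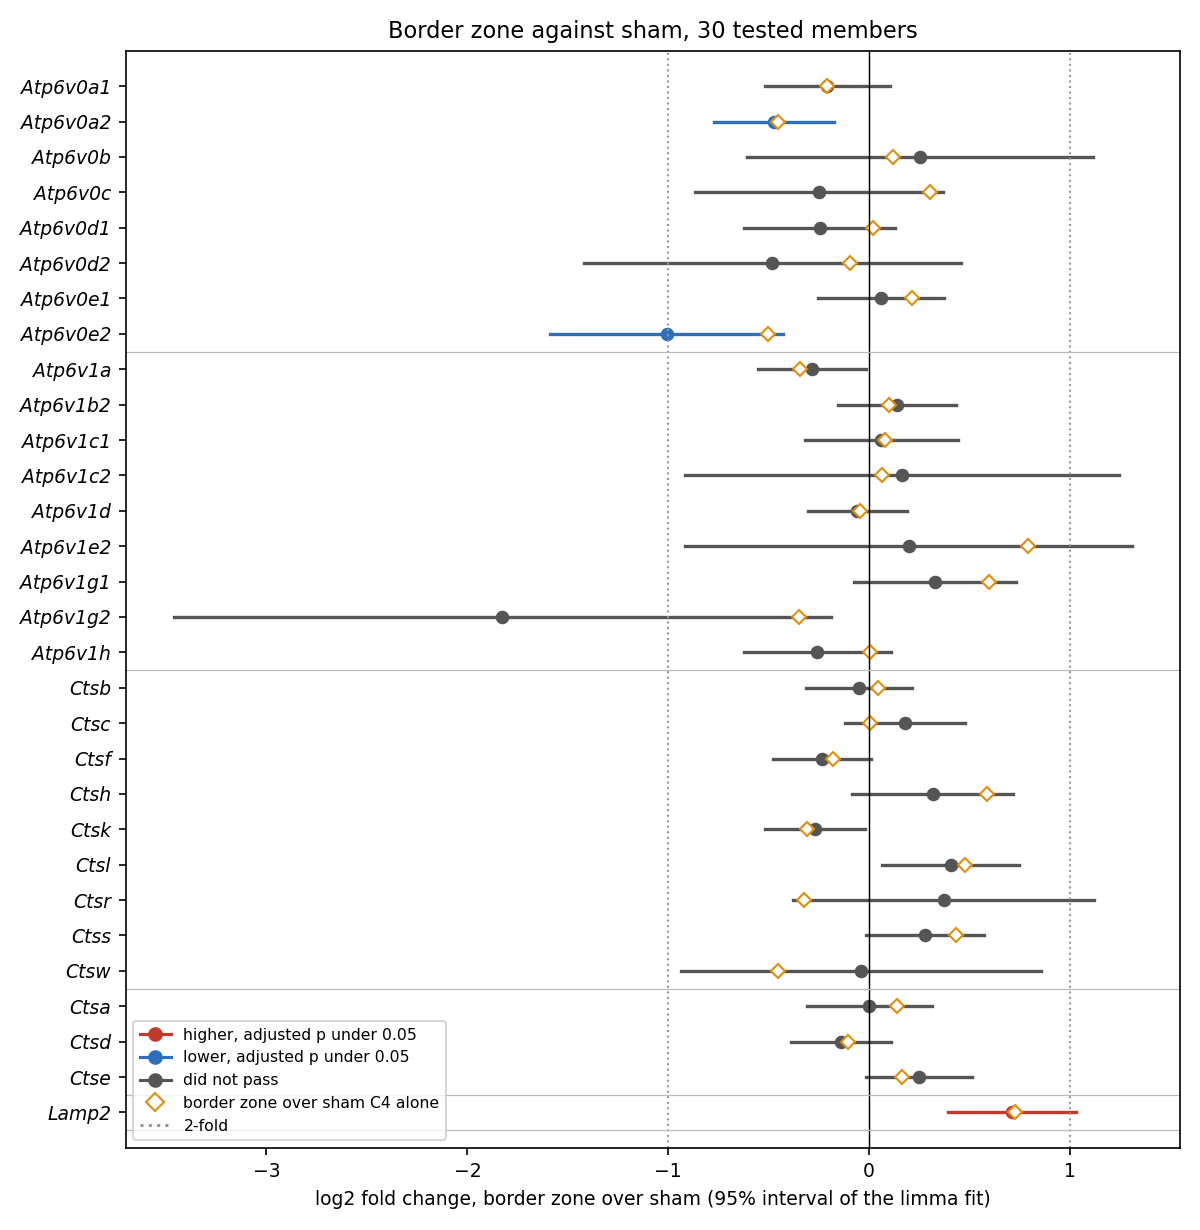
Log2 fold change of the border zone over sham for the 30 tested members, with the 95% interval of the limma fit (points and lines) and the border zone over sham C4 alone (open diamonds); horizontal lines separate V0, V1, cysteine cathepsins, other cathepsins and LAMPs. Lamp2 lies right of 0, Atp6v0a2 and Atp6v0e2 left of it, and 22 of the 30 intervals stay inside the dotted lines at 2-fold.

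LAMP2 is a major protein of the lysosomal membrane and takes part in the fusion of autophagosomes with lysosomes and, as its isoform A, in chaperone-mediated autophagy. On the normalized log2 scale, Lamp2 was at 1.52, 1.87 and 1.72 on M17, M24 and M25, against 0.98, 0.93 and 1.06 on C4, C5 and C6. All border-zone arrays were above all sham arrays, and the 3 sham arrays lay within 0.13 of each other. The mean was 1.70 ± 0.17 in the border zone and 0.99 ± 0.066 in sham (SD, n = 3 each), a log2 fold change of 0.71 ± 0.13 (95% interval 0.39 to 1.03, adjusted p = 0.0189). Against C4 alone it was 0.73, and with each array left out in turn 0.63 to 0.80. Over all alternatives the log2 fold change was 0.56 to 0.90, and the call held in 9 of 14 alternatives and ended without M24, without M25 (adjusted p = 0.115), without C5 and with scan as a block (adjusted p = 0.0645), also when M25 was left out there (range over all 14, 0.00704 to 0.255). The promoter of Lamp2 is shown because it is the member that rose; it is on chrX:122087624-122087923 (minus strand, RefSeq, GRCr8), and covers 250 bases before to 50 after the gene start.
Lamp2: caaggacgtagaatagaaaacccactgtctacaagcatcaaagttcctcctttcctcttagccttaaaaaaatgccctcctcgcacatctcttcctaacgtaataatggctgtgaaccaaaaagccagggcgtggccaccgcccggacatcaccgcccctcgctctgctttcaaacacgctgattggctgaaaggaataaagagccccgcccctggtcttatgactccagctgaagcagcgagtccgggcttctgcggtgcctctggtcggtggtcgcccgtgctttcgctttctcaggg
It holds no CACGTG, which says only that these letters are not in this window.

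The other 2 LAMPs were not tested. Lamp3, known as a marker of mature dendritic cells in humans, was not well above background on any array. Lamp5, which is expressed in brain neurons in rodents, gave -8.91, -8.79 and -9.06 (normalized log2) on M17, M24 and M25, against -8.63, -3.71 and -3.69 on C4, C5 and C6. Only C5 was well above background, and C5 and C6 stood apart from the other 4 arrays, as the nervous tissue markers did. Their part in this difference was not tested, and no fold between the groups is given.

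The V0 sector holds the ring of c and b subunits that carries protons, the a subunit that forms the channel and targets the pump to a membrane, subunit d that couples the ring to V1, and the small subunit e. Of 8 V0 genes tested, 2 fell and 6 did not pass (25% called, against 19.3% of all probes tested, 10.3% lower). The median log2 fold change was -0.25, and -0.037 against C4 alone. The medians thus differ with the sham arrays used.

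Atp6v0e2, 1 of 2 genes for subunit e, had normalized log2 signals of -2.72, -2.92 and -2.90 on M17, M24 and M25, against -2.34, -1.66 and -1.51 on C4, C5 and C6. The groups did not overlap, and C4 was the sham array nearest to the border zone. The log2 fold change was -1.01 ± 0.24 (95% interval -1.59 to -0.43, adjusted p = 0.036), but -0.50 against C4 alone (adjusted p = 0.0721) and -0.98 without M25 (adjusted p = 0.144). Over the alternatives the log2 fold change was -1.26 to -0.48, and the call held in 6 of 14 (adjusted p 0.00198 to 0.347) and, with 1 array left out, only without C4. In sham, C5 and C6 were on average 0.75 above C4, in the direction of the nervous tissue markers, whose part in the fall was not tested. The other gene for subunit e, Atp6v0e1, did not pass (0.059 ± 0.13, 95% interval -0.26 to 0.38).

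Atp6v0a2 encodes an a subunit that is found mostly on the Golgi and on early endosomes. It was at -2.71, -2.96 and -2.84 (normalized log2) on M17, M24 and M25, against -2.38, -2.45 and -2.26 on C4, C5 and C6. The groups did not overlap, and C4 lay between the other sham arrays. The log2 fold change was -0.47 ± 0.12 (95% interval -0.77 to -0.17, adjusted p = 0.0456), -0.46 against C4 alone and -0.47 without M25 (adjusted p = 0.193). The adjusted p is close to the threshold, the log2 fold change was -0.54 to -0.23 over the alternatives, and the call held in 2 of 14 alternatives (adjusted p 0.0196 to 0.378), of which 1 leaves out C4 and the other tests only probes well above background on all 6 arrays. The a1 isoform, Atp6v0a1, did not pass (-0.21 ± 0.13, 95% interval -0.52 to 0.10). The promoter of Atp6v0a2 is given as that of a member that fell, from chr12:37640811-37641110 (minus strand, RefSeq, GRCr8), over the same window.
Atp6v0a2: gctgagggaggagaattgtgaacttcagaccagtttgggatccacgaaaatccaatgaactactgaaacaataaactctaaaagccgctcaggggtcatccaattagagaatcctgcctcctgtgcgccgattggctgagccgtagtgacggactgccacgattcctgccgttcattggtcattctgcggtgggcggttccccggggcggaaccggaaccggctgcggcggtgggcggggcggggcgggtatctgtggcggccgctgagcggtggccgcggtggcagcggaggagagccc
It holds no CACGTG.

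The other V0 genes did not pass. Atp6v0c, the proteolipid of the proton ring, had normalized log2 signals of 2.74, 2.67 and 2.67 on M17, M24 and M25, against 2.39, 3.11 and 3.32 on C4, C5 and C6. The border zone lay between C4 and the other sham arrays, so the pooled log2 fold change of -0.25 ± 0.25 and that against C4 (0.30) have opposite signs. Atp6v0d1, the widely expressed d subunit, behaved likewise at a smaller size, with -0.25 ± 0.15, 0.019 against C4. For Atp6v0b, of the proton ring, and Atp6v0d2, the d subunit of osteoclasts, the probes were well above background on the border-zone arrays and C4 only, and their intervals reached -0.61 to 1.12 and -1.42 to 0.46.

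The V1 sector is a ring of A and B subunits that hydrolyses ATP, joined to V0 by a central stalk (D and F) and peripheral stalks (C, E, G and H). Of 9 V1 genes tested, none passed in limma, against 19.3% of all probes tested. At an unadjusted limma p under 0.05 there were 2 (Atp6v1a and Atp6v1g2), against 36.4% of all probes tested. The median log2 fold change was 0.061, and 0.065 against C4 alone. Atp6v1a, the catalytic subunit, was at 0.73, 0.75 and 0.71 on M17, M24 and M25, against 1.07, 0.89 and 1.08 on C4, C5 and C6. The groups did not overlap, but the difference was small (-0.28 ± 0.11, 95% interval -0.55 to -0.017, adjusted p = 0.12). Atp6v1b2, the B subunit of most tissues, had a log2 fold change of 0.14 ± 0.12 (95% interval -0.15 to 0.43). Atp6v1d, of the central stalk, was the V1 gene with the narrowest interval, at -0.058 ± 0.10 (95% interval -0.31 to 0.19).

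Subunit G has 3 genes, and the isoforms differed in how they varied among sham arrays. Atp6v1g1, the widely expressed isoform, was at 3.88, 4.09 and 3.96 on M17, M24 and M25, against 3.38, 3.67 and 3.90 on C4, C5 and C6. All border-zone values but that of M17 were above every sham value, and the log2 fold change of 0.33 ± 0.16, 0.60 against C4, did not pass (adjusted p = 0.211). Atp6v1g2, the isoform of neurons, was at -1.66, -2.69 and -2.17, against -1.83, 0.20 and 0.58 on the same arrays. C5 and C6 were on average 4.65-fold above C4, while C4 lay inside the range of the border zone. The pooled log2 fold change was -1.83 ± 0.67 (95% interval -3.46 to -0.19, adjusted p = 0.108), -0.35 against C4 alone, and -2.57 without C4, where it passed (adjusted p 0.0051 to 0.728 over the alternatives). The nervous tissue markers differed between the sham arrays in the same direction, and their part in this value was not tested. Atp6v1g3, known from the kidney, was not well above background on any array.

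The remaining V1 genes give the same picture of small or imprecise differences. Atp6v1h, of the peripheral stalk, was at 1.96, 1.95 and 1.93 on M17, M24 and M25, against 1.94, 2.27 and 2.41 on C4, C5 and C6. C4 matched the border zone, and C5 and C6 were above it (-0.26 ± 0.15, 0.006 against C4). Of the C subunit genes, the widely expressed Atp6v1c1 differed by 0.061 ± 0.16, and Atp6v1c2, with 1 of 3 sham arrays above background, had an interval of -0.92 to 1.25. The only E subunit gene measured, Atp6v1e2, which is known from testis, had an interval of -0.92 to 1.31. The B1 gene Atp6v1b1, known from kidney epithelium, was not well above background on any array. Without C4, where 40.8% of all probes passed, 4 pump genes beyond Atp6v0e2 and Atp6v0a2 passed as lower (Atp6v0c, Atp6v0d1, Atp6v1g2 and Atp6v1h). In each of them C5 and C6 were above C4, on average by 0.40 to 2.22 log2. A fall called only without C4 favours genes with C5 and C6 above C4, so this was largely fixed by the choice of genes.

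**Figure D2:**
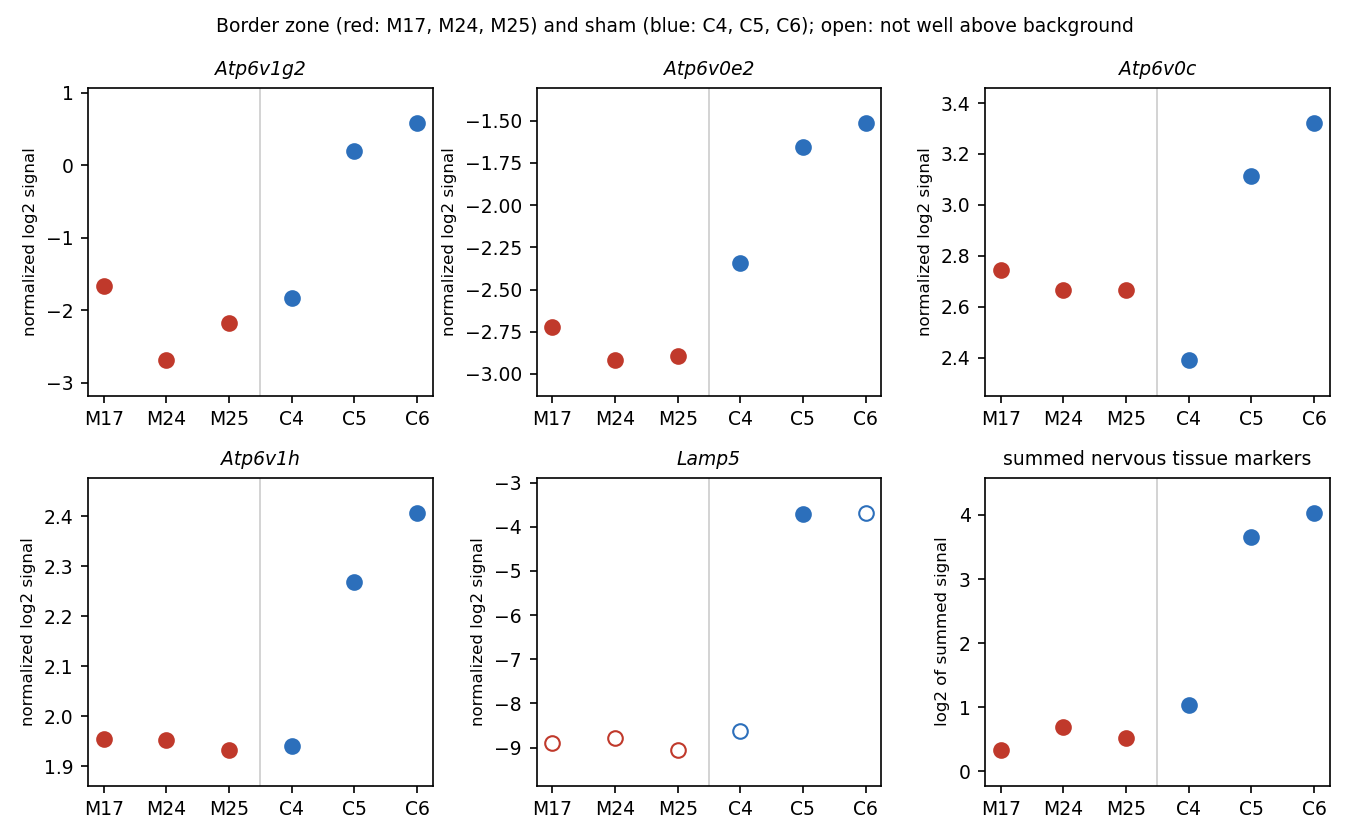
Normalized log2 signal of 5 members on each array, with the log2 of the summed signal of 14 markers of central neurons and glia in the last panel (border zone left, sham right, open symbols not well above background). The 5 were chosen after their values were seen, as members whose sham arrays stand apart. C5 and C6 are above C4 in every panel, on average by 0.40 log2 for Atp6v1h and 2.22 log2 for Atp6v1g2. Members not drawn differed alike, as Atp6v1g1 (0.41 log2) and Ctsh (0.40 log2) did, or the other way, as Ctsc did (-0.26 log2).

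Of 15 cathepsins, 12 were tested and none passed in limma, against 19.3% of all probes tested. At an unadjusted limma p under 0.05 there were 2 (Ctsl and Ctsk), against 36.4% of all probes tested. The median log2 fold change was 0.090, and 0.024 against C4 alone, and the 95% interval lay within 2-fold for 11 of the 12. Ctsb and Ctsd are among the most abundant proteases of the lysosome in most tissues. Ctsb, a cysteine protease with carboxydipeptidase activity, was at 6.01, 6.03 and 6.00 on M17, M24 and M25, against 5.97, 6.05 and 6.17 on C4, C5 and C6. The border zone lay inside the range of sham, with a log2 fold change of -0.049 ± 0.11 (95% interval -0.31 to 0.22). Ctsd, the main aspartic protease, was at 4.83, 4.76 and 4.75, against 4.88, 4.90 and 4.97 on the same arrays. The groups did not overlap, but the difference was -0.14 ± 0.10 (95% interval -0.39 to 0.11, adjusted p = 0.356). Ctsa, a serine carboxypeptidase that also protects beta-galactosidase and neuraminidase, had 0.0019 ± 0.13 (95% interval -0.31 to 0.31).

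Ctsl, a cysteine endopeptidase, had the largest positive log2 fold change of the 12. It was at 4.96, 5.24 and 5.10 on M17, M24 and M25, against 4.62, 4.59 and 4.87 on C4, C5 and C6. All border-zone arrays were above all sham arrays, by 0.41 ± 0.14 (95% interval 0.066 to 0.75, adjusted p = 0.093), and 0.48 against C4 alone. It passed with median scaling (0.60) and when only probes well above background on all 6 arrays were tested. Ctsk, a collagen-degrading protease best known from osteoclasts, was at 0.89, 0.98 and 0.90 in the border zone, against 1.24, 1.15 and 1.20 in sham. The groups did not overlap, by -0.27 ± 0.10 (95% interval -0.52 to -0.022, adjusted p = 0.114). The same held for Ctsf, a cysteine protease that can process the invariant chain in macrophages, at -0.24 ± 0.10 (95% interval -0.48 to 0.0089).

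Several cathepsins are prominent in myeloid cells, and these did not pass either. Ctss, which processes the invariant chain in antigen-presenting cells, was at 3.69, 3.69 and 3.59 on M17, M24 and M25, against 3.22, 3.48 and 3.43 on C4, C5 and C6. The groups did not overlap (0.28 ± 0.12, 0.43 against C4, adjusted p = 0.154). Ctsh, an aminopeptidase, was at 3.48, 3.60 and 3.54, against 2.96, 3.22 and 3.50 on the same arrays, with C6 inside the range of the border zone. Its log2 fold change of 0.32 ± 0.16 did not pass, while against C4 alone it was 0.59 and the only member to pass (adjusted p = 0.0404, in a fit without sham spread, where 15.9% of all probes passed, 8.43% higher and 7.5% lower; 0.0404 to 0.431 over the alternatives). Ctsc, which activates the serine proteases of neutrophil granules, had 0.18 ± 0.12, 0.0036 against C4. Ctse, an aspartic protease of stomach and immune cells, did not overlap between the groups (0.25 ± 0.11, adjusted p = 0.159).

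Summed signals of myeloid cell markers stood apart between the groups on the same arrays. The summed signal of 11 neutrophil markers, in multiples of the 75th percentile, was 5.85 to 6.93 in the border zone, against 0.357 to 0.629 in sham. That of 14 monocyte and macrophage markers was 85.4 to 89.6 in the border zone, against 44.8 to 53.0 in sham. This difference rests largely on 1 gene, Lyz2. It was at 5.65, 5.56 and 5.61 (normalized log2) on M17, M24 and M25, against 4.27, 3.81 and 3.64 on C4, C5 and C6. C1qa, the next brightest on the border-zone arrays, did not pass (log2 fold change -0.0045). The counts of marker calls here are to be read beside the 9.01% of all probes tested that were called higher and the 10.3% called lower. Of the tested macrophage markers, 5 of 12 rose (Cd14, Lyz2, Mrc1, C1qb and C1qc), and all 5 were well above background on every sham array. The 2 that fell were Adgre1 (log2 fold change -0.77) and Cx3cr1 (-1.34), the latter well above background on C4 alone among the sham arrays. Csf1r was lower on every border-zone array than in sham without passing (-0.48). Of 10 neutrophil markers tested 9 were called higher, but only 2 of them, S100a8 and Lcn2, were well above background on all sham arrays, 4 on some and 3 on none, so those 7 could enter the test through the border zone alone; Prtn3 and Cd163 were not well above background in the border zone or on C4. The part of these cells in the values of Ctss, Ctsh and Ctsc was not tested. Summed fibroblast markers were at 60.9 to 74.4 in the border zone, against 94.5 to 122 in sham (2 of 5 fell, Col3a1 and Col1a2). Endothelial markers were at 10.4 to 13.2, against 14.9 or more in sham (1 of 4 fell, Emcn). In the other direction, Dcn of the fibroblast list (log2 fold change 0.40) and endothelial Pecam1 (0.31) were higher on every border-zone array than in sham, without passing. All 5 fibroblast markers were above background on every array. Their part in the values of Ctsk and the other members was not tested either. Ctsg, a serine protease of neutrophil and mast cell granules, was well above background on M17, M24 and C6 only and was not tested. It gave -6.33, -6.26 and -7.21 (normalized log2) on M17, M24 and M25, against -7.79, -6.11 and -3.27 on C4, C5 and C6, so the highest value was that of sham C6.

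The other cathepsins were dim. Ctsr, known from rodent placenta, and Ctsw, of cytotoxic lymphocytes, were well above background on the border-zone arrays and C4 only, with intervals of -0.38 to 1.12 and -0.93 to 0.85. The placental Ctsm was well above background on M17 and C4 and Ctsq on no array, and neither was tested.

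**Figure D3:**
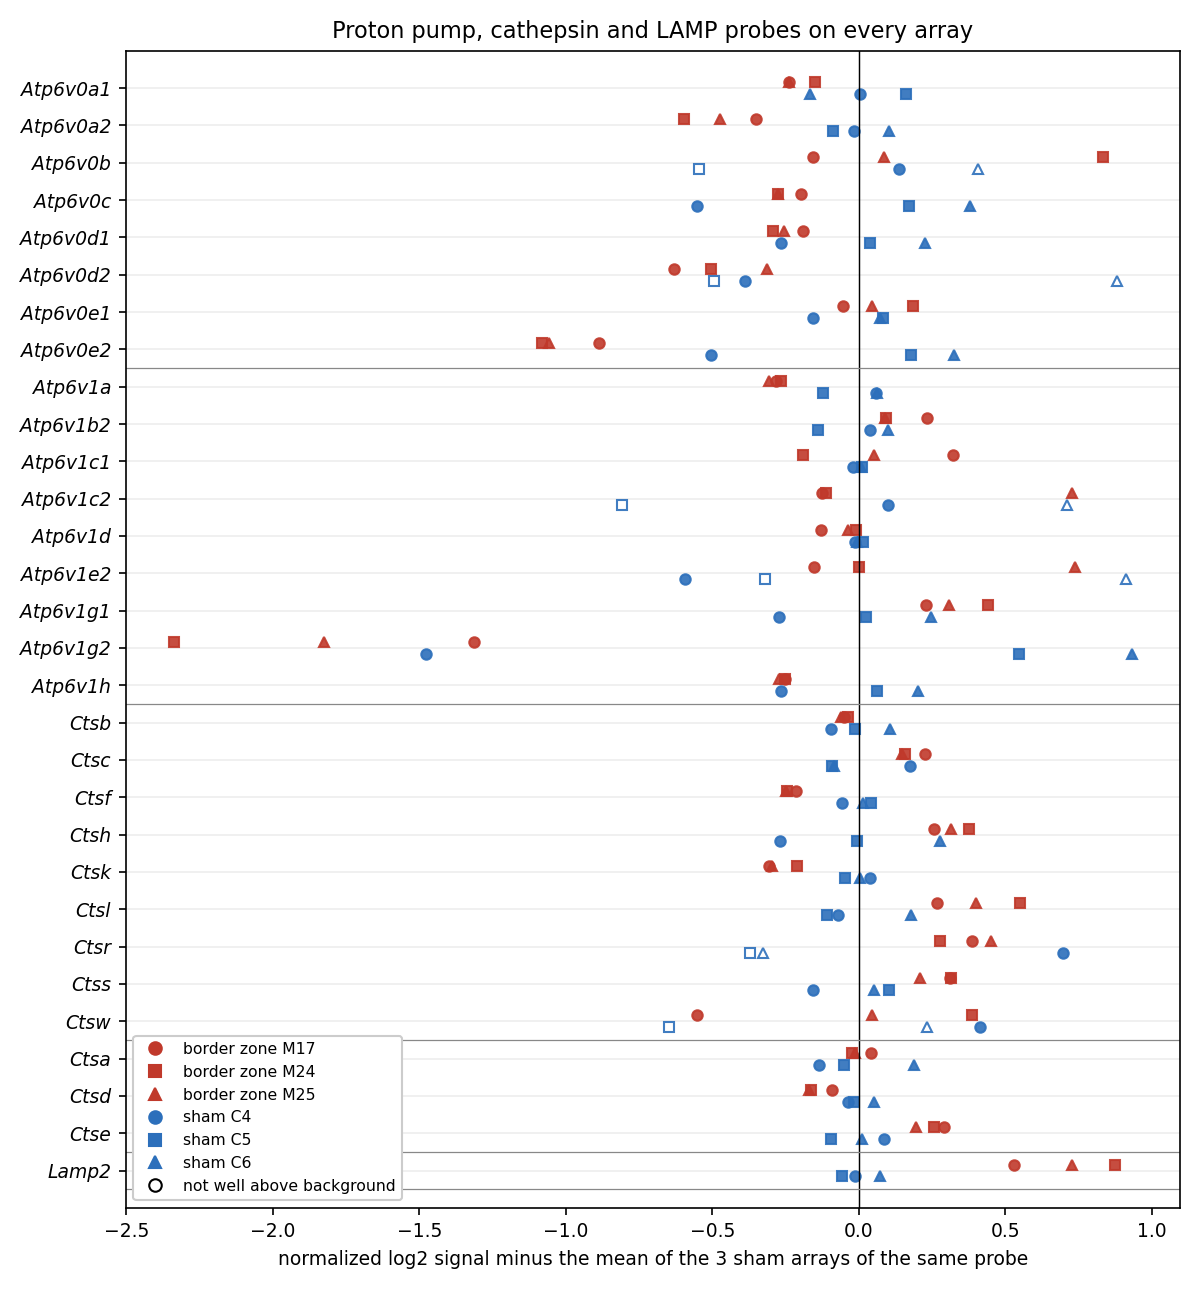
Normalized log2 signal of each tested member on every array, minus the mean of its 3 sham arrays (border zone red and upper, sham blue and lower, open symbols not well above background). Lamp2 is right of all sham arrays and Atp6v0a2 and Atp6v0e2 left of them, while in Ctsb, Ctsa and Atp6v1d the arrays of both groups lie within 0.35 of each other.

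The E-box core CACGTG was looked for in the promoters of members, since TFEB is known to act through it and the letters are the same on both strands. Of the 37 members, 29 had a promoter in the RefSeq table, and 4 of the 29 (13.8%) held CACGTG, against 6.42% of 33469 rat promoters of the same length. The longer TCACGTGA, which contains the core, was in 3 of the 29 (10.3%), against 0.777% of all promoters. A match is a description and no measured site. The stretches below are shown because they hold the motif in Atp6v0d1, Atp6v0e1 and Ctsd, 17 bases on each side of the core, with CACGTG in capitals (minus strand of GRCr8, chr19:50357278-50357317, chr10:17007110-17007149 and chr1:206968809-206968848).
Atp6v0d1: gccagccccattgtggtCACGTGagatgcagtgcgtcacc
Atp6v0e1: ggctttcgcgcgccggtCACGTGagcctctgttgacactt
Ctsd: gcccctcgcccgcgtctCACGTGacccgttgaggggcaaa
None of these 3 genes passed in limma (0 of the 3 at an unadjusted p under 0.05), with log2 fold changes of -0.25 for Atp6v0d1, 0.059 for Atp6v0e1 and -0.14 for Ctsd. Ctsd holds the core a second time, without TCACGTGA there, and the other promoter with the core, that of Ctsf, does not hold TCACGTGA either.

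Other lysosomal genes were examined in 8 lists of 169 genes, of which 131 were tested. The label is used loosely here, as the lists include cathepsin inhibitors, regulators and autophagy genes that are not all lysosomal. Of the 131, 8 were called higher, 4 of them in the list of cathepsin inhibitors, and 19 lower (20.6% together, against 19.3% of all probes). Of the 8, Csta and Dmxl1 were not well above background on all sham arrays. The median log2 fold change of the 131 was -0.076, against -0.026 over all probes. Among soluble hydrolases other than cathepsins, of 26 tested 7 fell, none rose and 19 did not pass (median -0.27, -0.24 against C4). They included Manba, which removes mannose (-1.09 ± 0.17, -0.79 against C4), the lysosomal phospholipase Pla2g15 (-1.06 ± 0.14, -0.84 against C4), the acylethanolamide hydrolase Naaa (-0.97 ± 0.11, -0.87 against C4) and the sulfatase Arsb (-0.94 ± 0.14, -1.14 against C4). Of 10 saposins, progranulin, activators and lysosomal peptidases tested, 5 fell, none rose and 5 did not pass (median -0.44, -0.33 against C4). Progranulin (Grn), a secreted and lysosomal growth factor precursor, fell by both of its probes (log2 fold changes of -0.92 and -1.01). The peptidases Dpp7 (-0.74 ± 0.12, -0.57 against C4), Scpep1 (-0.69 ± 0.14, -0.48 against C4) and Cpq (-0.61 ± 0.13, -0.48 against C4) fell as well, those of Scpep1 and Cpq without a call with scan as a block. Whether these lists differ from the cathepsins was not tested.

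Of these 27 calls, 25 ended without M25 (adjusted p 0.0508 to 0.221), among them all 19 falls, while the log2 fold changes moved by at most 0.047; Serpinb1a and Litaf were still called. At an unadjusted p under 0.05, limma then had 26 of the 131, against 50 with all 6 arrays (38.2%, and 36.4% of all probes tested). With scan as a block, 12 of the 19 falls and 5 of the 8 rises were still called, and 6 other genes were called. Among the genes named here, the calls of Scpep1 (adjusted p = 0.0846), Cpq (0.109), Tsc2 (0.0972), Ostm1 (0.147), Gabarapl1 (0.0598) and Dmxl1 (0.0637) ended with the block.

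The largest fold changes among the 8 lists were in the list of cathepsin inhibitors, which also holds inhibitors of other proteases, such as Serpinb9. Of 9 tested, 4 were called higher, 1 fell and 4 did not pass (median 0.56, 0.48 against C4). Over all probes tested, 9.01% were called higher and 10.3% lower. Serpinb1a, which in mice inhibits neutrophil elastase and cathepsin G, was at 3.64, 3.65 and 3.61 on M17, M24 and M25, against -0.47, -0.58 and -0.81 on C4, C5 and C6. All border-zone arrays were far above sham, 19.0-fold (4.25 ± 0.13, 4.11 against C4, adjusted p = 0.000371), and the call held in all 14 alternatives. Slpi, a secreted inhibitor of the same serine proteases, was at 3.16, 2.18 and 2.71, against 0.11, -1.53 and -1.91 on the same arrays. It rose 13.8-fold (3.79 ± 0.57, 2.57 against C4, adjusted p = 0.0109), and its call ended without M25 (adjusted p = 0.0629; 0.00126 to 0.111 over the alternatives). Csta, an inhibitor of cysteine cathepsins, was not well above background on any sham array and was at least 4.47-fold higher, with each sham array set at the higher of its own signal and the lowest signal well above background. Its probe was tested through the border zone alone, and the adjusted p of 0.0272 (0.113 without M25) was computed on sham signals that were not well above background. The granzyme B inhibitor Serpinb9 fell (-0.82 ± 0.19, -1.19 against C4), and its call held in 4 of 14 alternatives. The cystatins Cst3 (-0.16 ± 0.19) and Cstb (0.022 ± 0.14), which inhibit cysteine cathepsins outside and inside cells, did not pass. Myeloid cells, whose summed markers were higher on the same arrays, are known to express several of these inhibitors. The part of these cells in these values and in those of Litaf and Lgals3 was not tested.

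Genes that control or service the lysosome moved in part, to be read beside the 9.01% of all probes tested that were called higher and 10.3% called lower. Of 16 genes of the TFEB family and of nutrient sensing at the lysosome, 3 fell and 13 did not pass (median -0.21, -0.13 against C4). These were Ppargc1a, a coactivator of mitochondrial genes (-1.03 ± 0.12, -1.16 against C4), Flcn, a regulator of the Rag GTPases that hold TFEB in the cytosol (-0.85 ± 0.10, -0.84 against C4), and Tsc2, an inhibitor of mTORC1 (-0.65 ± 0.14, -0.61 against C4). Tfeb itself did not pass (-0.27 ± 0.14, -0.30 against C4). Of 22 membrane and channel genes, 1 rose, 2 fell and 19 did not pass: Litaf, a membrane protein of late endosomes induced by endotoxin, rose (1.45 ± 0.15, 1.41 against C4), and the 2-pore channel Tpcn1 (-0.97 ± 0.22, -0.53 against C4) and Ostm1, the partner of the chloride exchanger ClC-7 (-0.44 ± 0.12, -0.33 against C4), fell. Litaf also passed without M25 (adjusted p = 0.0407; 0.00125 to 0.13 over the alternatives). Of 29 autophagy and lysosome damage genes, 2 rose, 1 fell and 26 did not pass: Lgals3, a galectin that is recruited to ruptured lysosomes and abundant in macrophages (1.20 ± 0.18, 1.39 against C4), and Gabarapl1, of the ATG8 family (0.43 ± 0.11, 0.47 against C4), rose, and Atg5 fell (-0.54 ± 0.10, -0.49 against C4). The call of Gabarapl1 held in 3 of 14 alternatives. Of 11 sorting genes of the mannose 6-phosphate route, none passed in limma (3 at an unadjusted p under 0.05, against 36.4% of all probes tested). The smallest limma p was that of Nagpa (-0.35 ± 0.098, -0.36 against C4, adjusted p = 0.057). Of 8 accessory and assembly genes of the pump, Dmxl1, which takes part in V-ATPase assembly, was called, but its probe was well above background on C4 alone among the sham arrays, and no fold is given; the other 7 did not pass.

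**Figure D4:**
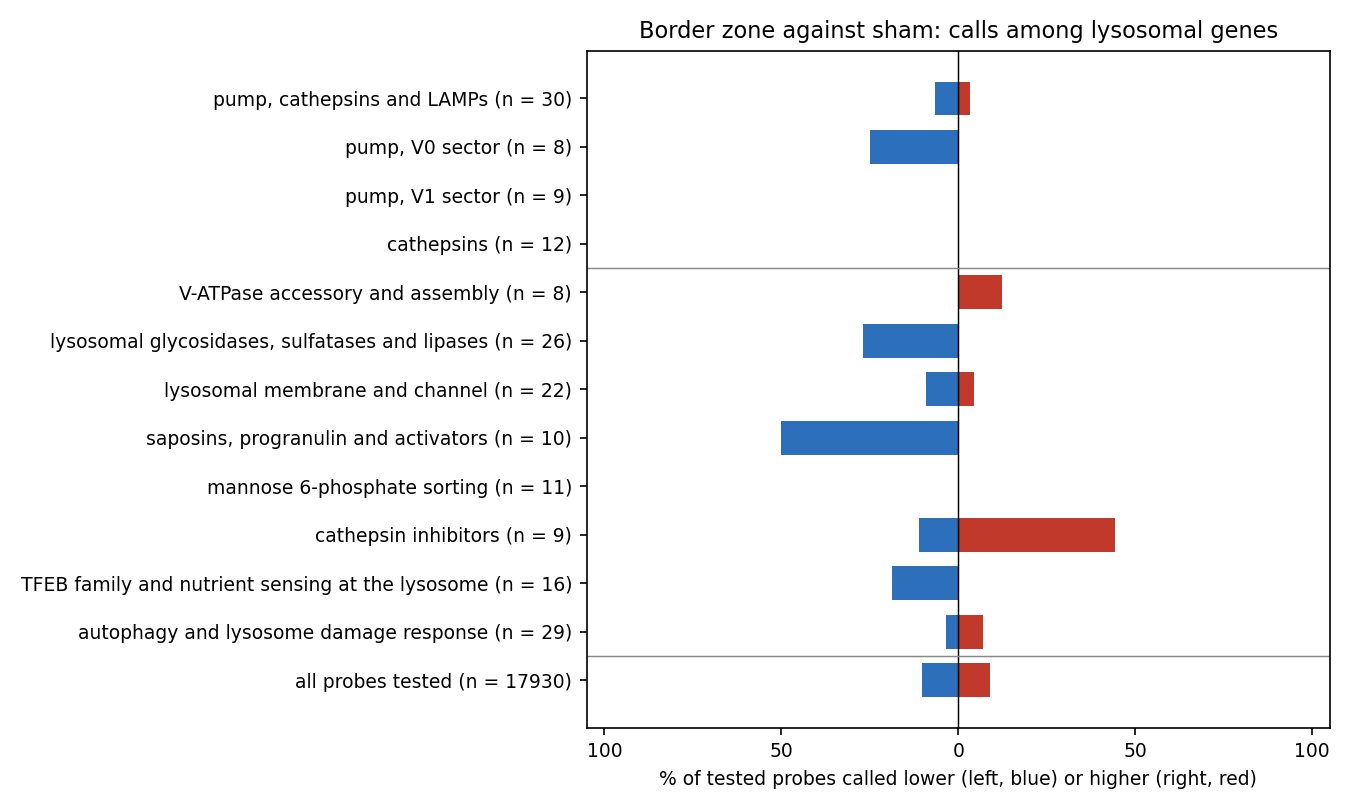
Share of tested probes called lower (left) or higher (right) in the border zone, for the members, for 8 lists of other lysosomal genes and for all 17930 probes tested (n, probes tested; Lamp2 is the only tested LAMP and is drawn within the first bar). Bars on the left only are seen for the V0 sector (2 of 8), hydrolases (7 of 26), saposins, progranulin and activators (5 of 10) and the TFEB list (3 of 16), and V1 and cathepsins have no bar.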

How the data were processed

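Expression was measured in 6 samples from male Wistar rats per the labels, 3 after LAD ligation and 3 after a sham operation, on 1-colour Agilent arrays; it is uncertain that M25 comes from an animal of its own, and p-values measure the spread between these arrays. Per the file headers, the deposited intensity values come from Agilent's software Feature Extraction 11.0.1.1, after background subtraction and without normalization between arrays. The deposited spot flags are 0 or 1. The authors' value table, on the log2 scale, has nearly equal quantiles in all columns and was used as an alternative; 24415 of its 24529 probes matched.

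Control and outlier spots were left out, spots of a probe were averaged on the log2 scale, and the 75th percentile of each array was subtracted. Of 24684 probes, 24614 had a usable spot on all arrays. The test took probes that exceeded background clearly on each array of the border zone, of sham or of both (17930), with limma 3.58.1 in R 4.3.3 (lmFit, eBayes, two-sided, adjusted p below 0.05). The fit was also run on simulated independent arrays. These lacked the differences in scan and background, the nervous tissue transcripts and the position of M25, so they do not show how the fit handles them. Figures were made with matplotlib 3.10.9. The number of arrays limits precision.

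Probes were named by RefSeq accession in a table of GRCr8; the array headers name rn4. For genes of the other lists, the probe with the highest average signal stands for the gene. Members, lists and tests were chosen with earlier results of these data known. Values on every array are printed for members that passed or exceeded 2-fold; others with such values were chosen after they were seen. From each list up to 4 passing genes are named by size, or the one with the smallest p; Cst3, Cstb and Tfeb were chosen after their values were seen. The normexp alternative used median spot and background signals, as the files hold no mean signal.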

Additional observations from a re-analysis of the deposited data

How the results depend on the processing

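Calls among the 30 members changed with settings and single arrays, and the log2 fold change of Atp6v1g2 was -2.57 to -0.35 and that of Atp6v0c -0.53 to 0.31 over the alternatives. Relative to 1 higher and 2 lower, the counts were 1 and 1 with quantile scaling and with the authors' value table, 2 and 1 with median scaling, 1 and 5 with normexp, 1 and 0 without a filter, 2 and 2 among probes well above background on all 6 arrays, 1 and 0 with scan as a block, and 0 and 0 without M25 and with scan as a block (2 at an unadjusted p under 0.05 in limma). Leaving out 1 array gave 0 to 2 higher and 0 to 6 lower. The median log2 fold change of members was 0.17 with median scaling, -0.14 without a filter, -0.084 with normexp and -0.072 to 0.071 with 1 array left out. Median scaling moved the median of all probes to 0.16, and 67.6% of its calls were higher, against 46.7%. Over all probes, 3460 passed, 1826 without a filter, 76 without M25 and with scan as a block, and 509 (without M25) to 7308 (without C4) with 1 array left out. Other lysosomal genes called higher were 5 without a filter, 2 without M25 and with scan as a block and 2 to 18 with 1 array left out, against 8; called lower were 7 with median scaling, 8 without a filter, 32 with normexp, 0 without M25 and with scan as a block and 0 to 36 with 1 array left out, against 19. For the 30 members, 25 of 414 gene values lost a call, 12 gained one and none called changed sign; 44 values without a call did. The cause was not tested. No paired analysis was possible because the groups share no replicate numbers.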
